A study of Mus musculus with 11 samples.

Results

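The genes described here encode the parts of respiratory complexes II to V that are made from nuclear DNA, in whole mouse hearts. They were chosen by name from a table of 54532 genes, as protein-coding genes whose symbols begin with those of the succinate dehydrogenase, cytochrome bc1, cytochrome c oxidase and ATP synthase families, together with cytochrome c. The rule gave 57 table entries with 56 symbols, because Atp5o is listed under a further identifier that is at 0 in every library. Of these, 54 had enough counts to be tested, which were 8 of complex II, 12 of complex III, the cytochrome c gene Cycs, 16 of complex IV and 17 of complex V. The 3 entries left out were Cox8c and the second Atp5o entry, both at 0, and Cox7b2 with at most 14 counts in a library. The names also bring in 7 assembly genes (Sdhaf1 to Sdhaf4 and Uqcc1 to Uqcc3), the supercomplex factor gene Cox7a2l and Atp5s, now called Dmac2l, none of which is a core subunit gene.

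Hearts came from C57BL/6 mice with a labelled time of 26 weeks, in 3 groups with 11 libraries in all. The METTL3 group (4 libraries) carries the label HFD+STZ together with AAV METTL3, the HFD+STZ group (4 libraries) carries HFD+STZ alone, and the chow group (3 libraries) is labelled as chow. The letters are not spelled out, though in diabetes models they commonly stand for a high-fat diet with streptozotocin, and AAV for an adeno-associated virus. METTL3 is the enzyme that methylates adenosines in messenger RNA. The sources used here give neither the promoter of the vector, nor whether HFD+STZ hearts received a control virus, nor whether a library is 1 animal, so p-values speak of the spread among these libraries only, which could be technical.

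Complex II takes electrons from succinate and is the only one of these complexes encoded wholly in the nucleus. Complex III passes electrons from ubiquinol to cytochrome c, complex IV passes them on to oxygen, and complex V uses the proton gradient they build to make ATP. Complexes III, IV and V mix a few subunits from mitochondrial DNA with many from nuclear DNA. Heart muscle is among the tissues richest in these complexes, and several complex IV subunits have a separate isoform made in heart and skeletal muscle.

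Libraries held 13900531 to 16952639 counts. Mettl3 itself had 8.39 ± 2.19 CPM (counts scaled to a common library size after TMM) in METTL3 hearts, 6.35 ± 1.58 in HFD+STZ hearts and 6.11 ± 2.67 in chow hearts (SD, n = 4, 4 and 3). A rise of METTL3 over HFD+STZ was not detectable (log2 fold change 0.40, 95% interval -0.30 to 1.09), so directions for the METTL3 group rest on its label. Cardiomyocyte markers summed to 32852 to 37275 CPM in METTL3, 30078 to 43131 in HFD+STZ and 36018 to 41137 in chow hearts. Skeletal muscle myosins Myh1, Myh2 and Myh4 reached at most 3 to 5 counts in any library, and the brown fat gene Ucp1 at most 1; of the 5 listed skeletal muscle genes only Acta1, which heart muscle also makes, passed 28 counts. Counts of the mitochondrial genome took 37.7% to 45.5% of METTL3, 28.6% to 32.5% of HFD+STZ and 9.28% to 27.4% of chow libraries. Chow replicate 3 stood apart: genes with principal transcripts under 1000 bases held 21.1% of its nuclear coding counts, against 7.19% to 10.3% of the other 10 libraries, and its mitochondrial share was the lowest. Counts, medians and called genes in comparisons with chow are therefore given with and without it, except where stated.

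The genes of these complexes were among the abundant nuclear messages of the heart. Together they took 3.88% to 5.10% of nuclear counts in METTL3 hearts, 3.93% to 4.69% in HFD+STZ hearts, and 3.52%, 4.003% and 6.37% in the 3 chow libraries. Genes were set side by side as CPM per kilobase of annotated principal transcript, which holds only as far as that is the transcript expressed. On this scale the catalytic F1 subunit genes Atp5b and Atp5a1 led in METTL3 hearts at 1964 and 1806, and in HFD+STZ hearts at 2207 and 1778. Next in both groups came Atp5g3, a gene for the membrane ring subunit c, and Cox4i1, the main isoform of complex IV subunit 4, with 1735 and 1724 CPM per kilobase in METTL3 hearts and 1706 and 1758 in HFD+STZ hearts. In chow hearts Cox4i1 had the highest mean at 2494 CPM per kilobase, followed by Atp5b at 1774 and Atp5g3 at 1636, with Atp5a1 lower at 1338. That lead rests on chow replicate 3, and Atp5b was ahead of Cox4i1 in chow replicates 1 and 2. On the log2 scale chow replicate 3 differed from the mean of those 2 libraries by 1.83 for Cox4i1 and -0.02 for Atp5b. The lowest tested genes were the assembly genes Sdhaf1 and Sdhaf3 and the testis isoform Cox6b2, at 1.28 to 3.67 CPM per kilobase over the 3 groups. The counting's strand setting is not stated in the labels or processing notes, and 15 of these genes overlap a gene on the other strand, among them Atp5j, whose partner Gabpa had 0.135 as many counts. Named pseudogenes held 613 counts in all, against 5114894 of the genes themselves.

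**Figure D1:**
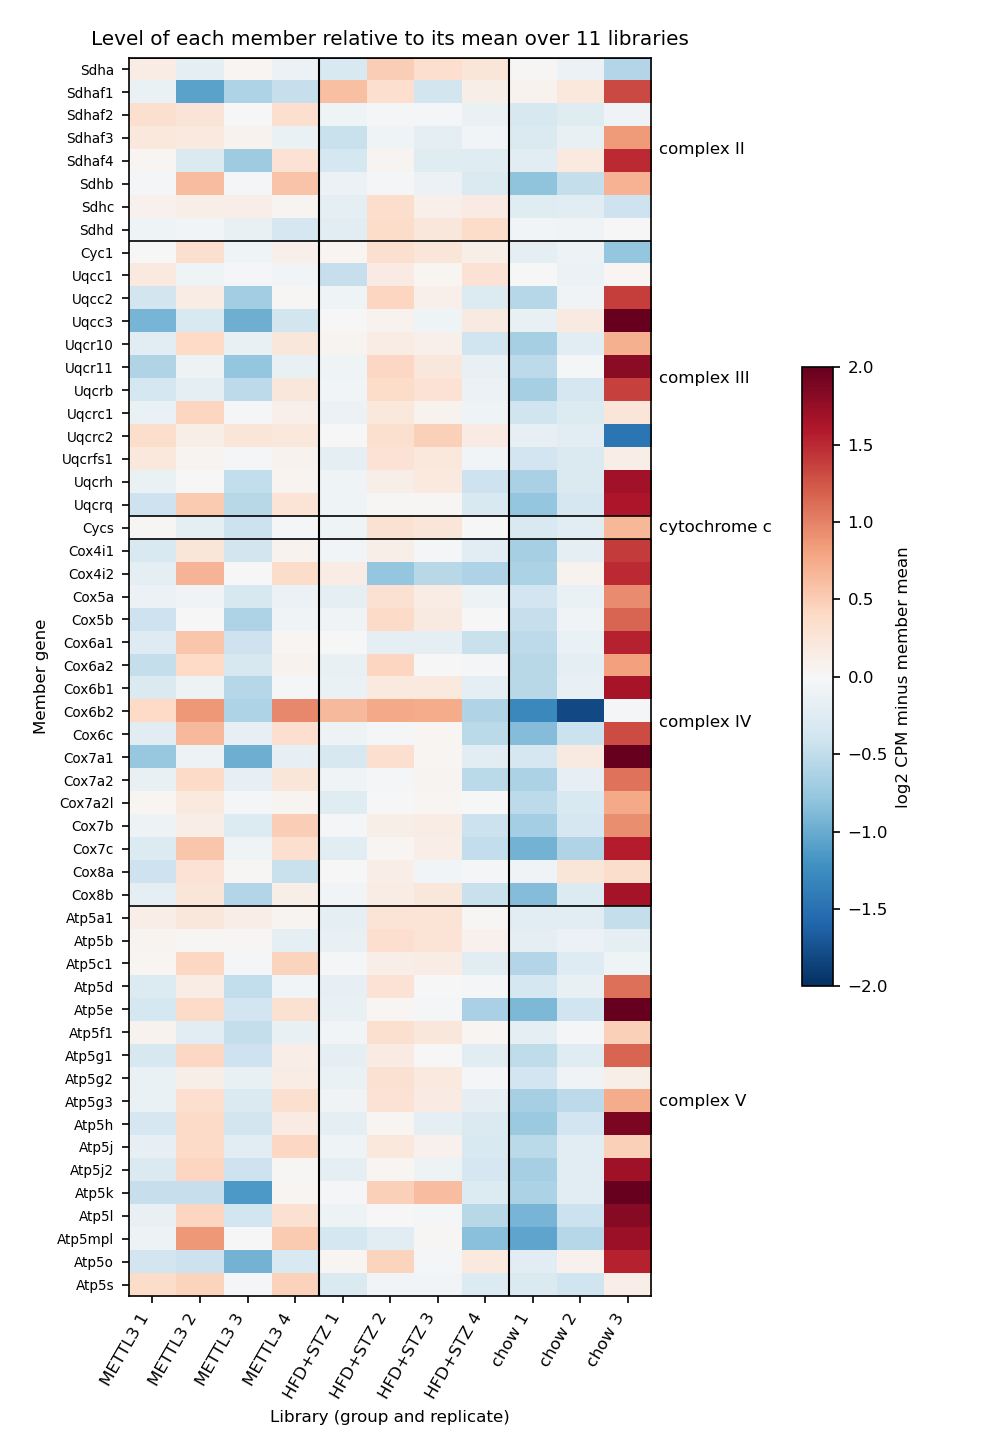
Colours give the log2 CPM of each of the 54 tested genes (rows, by complex) in each of the 11 libraries (columns, METTL3, HFD+STZ, then chow), minus the mean of that gene over all libraries, with red above and blue below the mean. Most rows are red in chow replicate 3, while Uqcrc2, Cyc1, Sdha and Atp5a1 are blue there, and chow replicates 1 and 2 are blue in most rows.

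Within the chow group the genes divided by transcript length. All 31 tested genes with transcripts under 1000 bases were higher in chow replicate 3 than in the mean of chow replicates 1 and 2, by a median of 3.65-fold. Among the 23 genes with transcripts of 1000 bases or more, 17 were higher and 6 lower, with a median of 1.40-fold. The same split stood in other nuclear coding genes, with a median of 2.64-fold over 681 short genes and 0.892-fold over 12382 longer ones. Atp5e, the epsilon subunit gene, lay at 1494 CPM in chow replicate 3 and 183 and 258 CPM in replicates 1 and 2. Uqcrc2, a core protein gene of complex III, lay the other way at 241 CPM against 597 and 569 CPM. By annotated length, the genes of 1000 bases or more thus also had a higher median than other long genes in that library. That length is of the principal transcript, the longest where several tied, and need not be the transcript expressed. The most raised of this band were Uqcrq (1521 bases, log2 difference 2.18), Atp5g1 (4715 bases, 1.54) and Cox7b (1001 bases, 1.44). The cause of the pattern in chow replicate 3 was not tested.

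**Figure D2:**
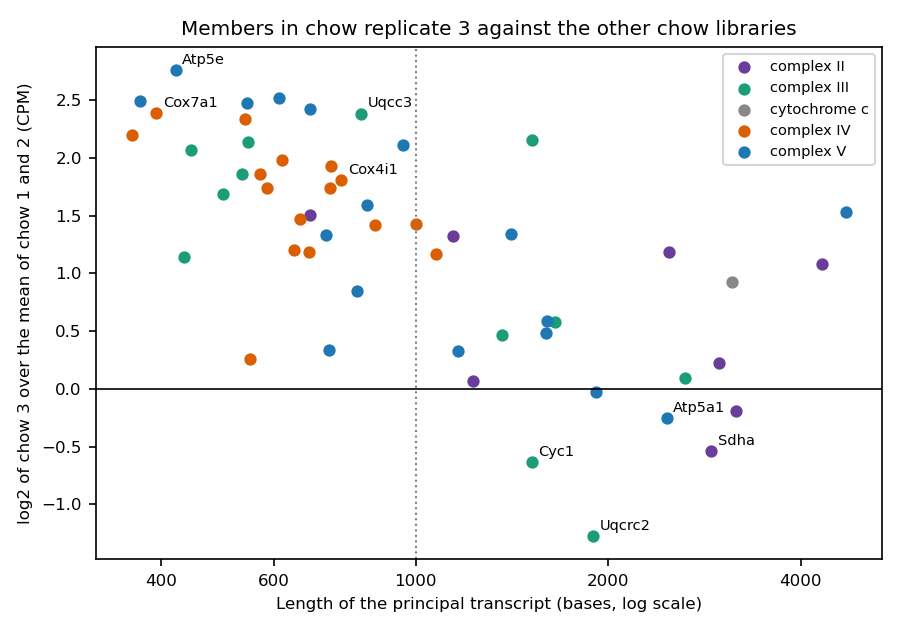
Each point is 1 tested gene, with the length of its principal transcript in bases on a log axis and, on the vertical axis, the log2 ratio of its CPM in chow replicate 3 to the mean of chow replicates 1 and 2; the dotted line marks 1000 bases. All 31 genes left of the line lie above 0, and the 6 genes below 0 all lie to its right.

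In the comparison of METTL3 with HFD+STZ hearts, which share the HFD+STZ label and differ in AAV METTL3, the respiratory genes showed no common shift. In METTL3 hearts 27 of the 54 genes were higher and 27 lower, with a median log2 fold change of -0.01, beside -0.00 over all 14862 genes tested. No gene passed in edgeR's quasi-likelihood test, adjusted by Benjamini-Hochberg over the whole table, where 0 genes of any kind were called (background 0%). Adjusted p-values given from here on come from this test and adjustment. At an unadjusted p under 0.05 there were 3 (Sdhaf1, Sdhaf2 and Atp5s), which is 5.56% against a background of 9.06%. DESeq2 called 0 of the 54, and limma voom with quality weights called 1, Atp5o, beside 139 and 395 of all 14862 genes. Groups did not overlap for 5 genes. Sdhb, Sdhaf2 and Atp5s lay higher in METTL3 hearts, 5.56% of the 54 against a background of 5.43% of all genes. Atp5o and Uqcc3 lay lower, 3.7% against a background of 4.14%. Both shares were near the background. In 3 METTL3 against 3 HFD+STZ libraries whose sample codes lie between 25 and 33, the only code range in which both groups have replicates, 0 genes passed and the median was -0.10. By complex the medians were 0.02 for II, -0.06 for III, 0.01 for IV and 0.05 for V.

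**Figure D3:**
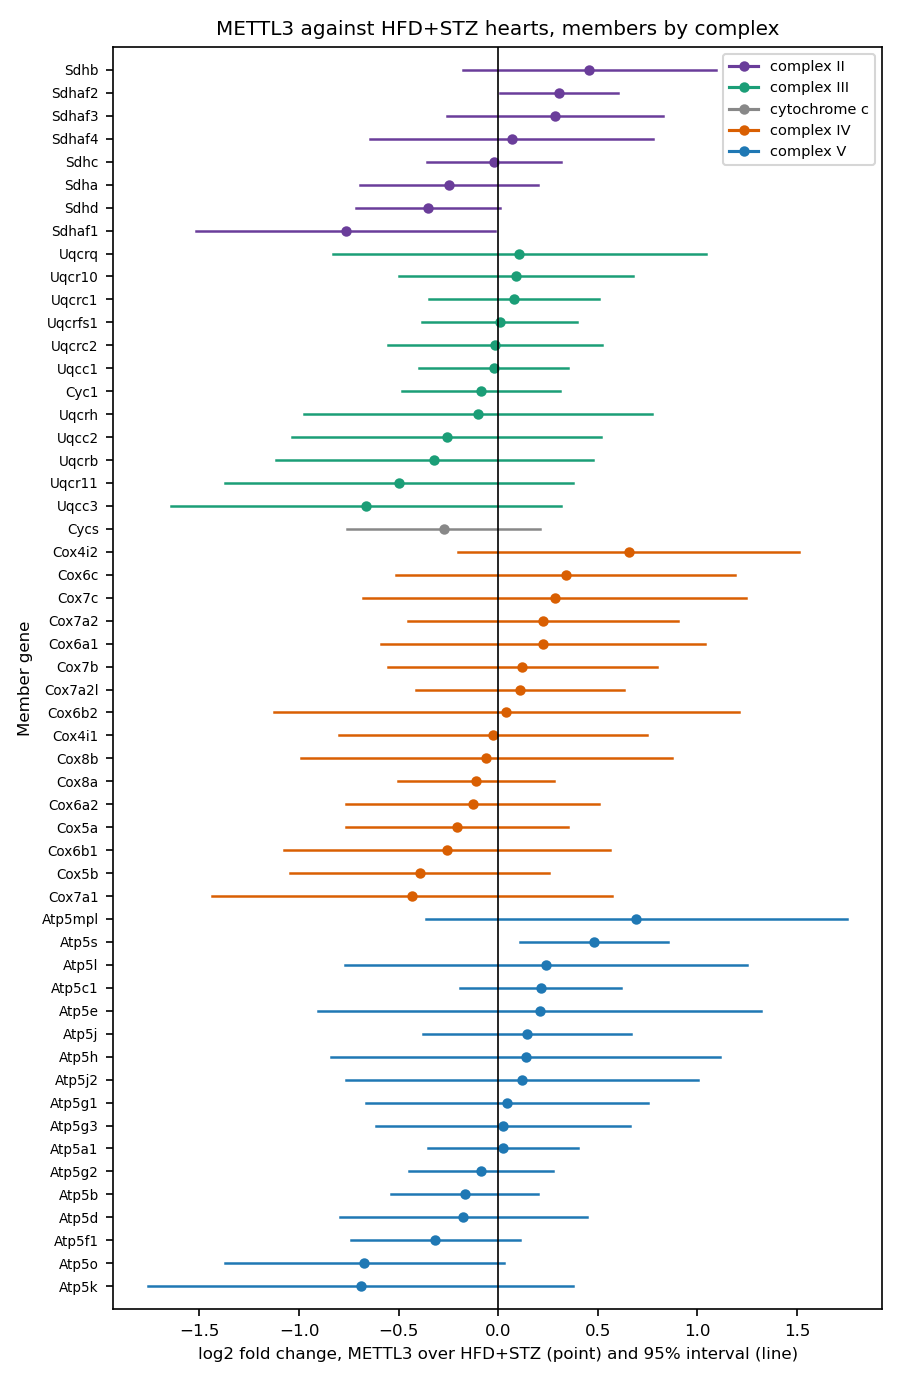
Points give the log2 fold change of METTL3 over HFD+STZ hearts for each tested gene and lines its 95% interval from the edgeR fit, grouped by complex from II at the top to V at the bottom. Points lie on both sides of 0 in complexes II to V, and the lines of Sdhaf1, Sdhaf2 and Atp5s alone stay on 1 side of 0.

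Against chow, both other groups gave lower medians with chow replicate 3 in the fit and higher ones without it. In METTL3 versus chow 18 genes were higher and 36 lower, with a median log2 fold change of -0.28 beside -0.01 over all genes. With chow replicate 3 left out, 43 were higher and 11 lower, and the median was 0.33. For HFD+STZ versus chow the counts were 19 higher and 35 lower with a median of -0.27, and without chow replicate 3 they were 51 higher and 3 lower with a median of 0.37. The median over all genes stayed between -0.02 and 0.01 in these 4 fits. The sign also turned with the method: over all 3 chow libraries limma voom with quality weights, which gives aberrant libraries less weight, gave medians of 0.16 for METTL3 and 0.29 for HFD+STZ, and edgeR with length and GC offsets gave 0.03 and -0.06. By complex, the medians for METTL3 over chow were 0.03 for II, -0.26 for III, -0.32 for IV and -0.29 for V, against 0.16, 0.31, 0.40 and 0.38 without chow replicate 3. For HFD+STZ over chow they were 0.02, -0.17, -0.44 and -0.33, against 0.25, 0.40, 0.37 and 0.34. Across the 54 genes, which are not independent, Spearman's rho between transcript length and log2 fold change over chow was 0.52 for METTL3 and 0.56 for HFD+STZ, and -0.09 and -0.36 without chow replicate 3. Both comparisons share the chow libraries, so their likeness is no separate result. Fewer heart muscle cells and less RNA per cell cannot be told apart in such tissue samples.

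Calls were few. For METTL3 versus chow edgeR called 0 of the 54 genes where it called 3.2% of all genes, and 15 had an unadjusted p under 0.05 (background 21.7%). DESeq2 called 5 (Uqcc3, Atp5o, Cox7a1 and Sdhaf1 lower, Sdhaf2 higher) and limma voom 14, beside 1509 and 3078 of all 14862 genes. Without chow replicate 3 edgeR called 3, all higher in METTL3 hearts (Sdhb, Atp5mpl and Atp5s), beside 4.92% of all genes, and 19 higher genes had an unadjusted p under 0.05 (background 11.7%). Without chow replicate 1 it called 5, all lower (Uqcc3, Cox7a1, Atp5k, Uqcr11 and Atp5o), beside 691 of all 15263 genes. For HFD+STZ versus chow edgeR called 0, with or without chow replicate 3, beside 0.168% of all genes with it and 0.512% without it. DESeq2 called 0 and limma voom 6, beside 307 and 1954 of all 14862 genes. Unadjusted p in edgeR was under 0.05 for 8 genes (background 12.1%). Without chow replicate 3 it was under 0.05 for 11 genes, all higher in HFD+STZ hearts (background 5.93% higher).

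Separation of the groups also turned on that library. With all 3 chow libraries, METTL3 hearts lay wholly above chow for 6 genes (background 10.5%) and wholly below for 3 (background 8.26%). HFD+STZ hearts lay wholly above chow for 4 genes (background 5.52%) and below for 0 (background 4.88%). Sdhc, Cyc1, Uqcrc2 and Atp5a1 were on both lists of higher genes, and all have transcripts over 1000 bases and their lowest level in chow replicate 3. Against chow replicates 1 and 2 alone, METTL3 hearts lay above for 24 genes and below for 3, where 16.9% of all genes lay above and the same share below. HFD+STZ hearts lay above those 2 libraries for 21 genes and below for 0 (background 10.3% above and 11% below). The chow libraries all carry codes of 94 to 98, a range that no METTL3 or HFD+STZ library reaches; what the codes mark is not given.

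**Figure D4:**
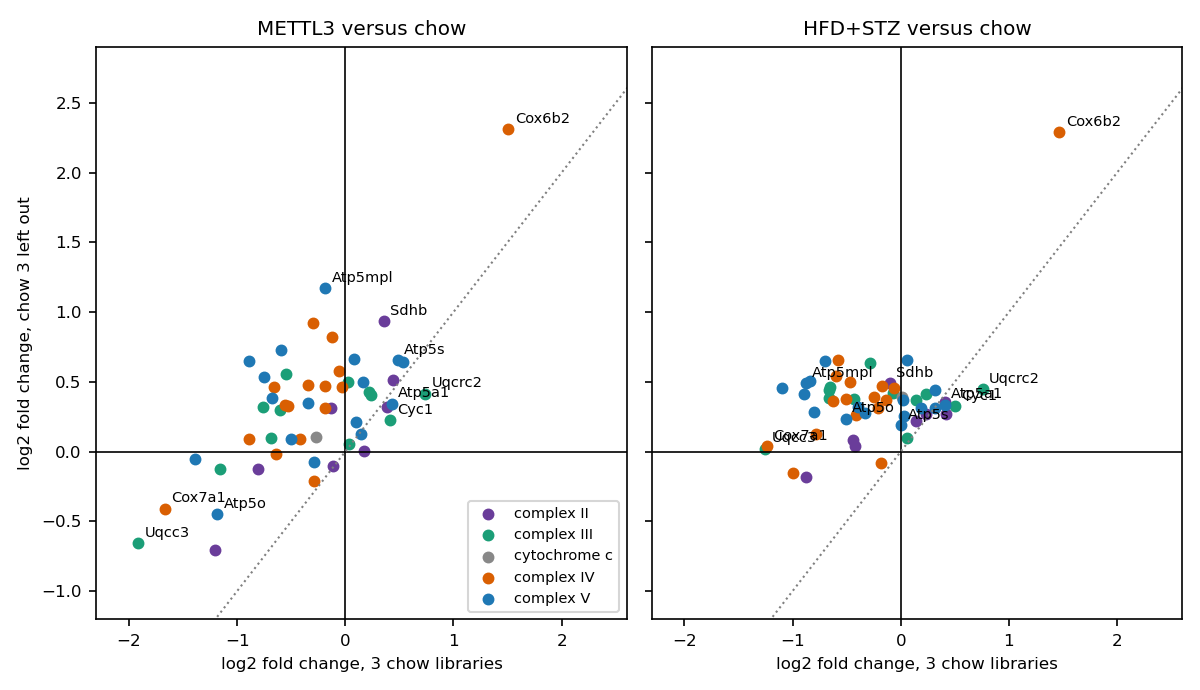
Each point is 1 tested gene, with its log2 fold change over all 3 chow libraries on the horizontal axis and over chow replicates 1 and 2 on the vertical axis, for METTL3 (left) and HFD+STZ (right); the dotted line marks equal values. Nearly all points lie above that line, and 43 of 54 for METTL3 and 51 of 54 for HFD+STZ lie above 0 on the vertical axis, while Uqcc3, Atp5o and Cox7a1 lie below 0 on both axes for METTL3 but not for HFD+STZ.

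Among the complex II genes, Sdhb and the assembly gene Sdhaf2 stood higher in every METTL3 library than in every HFD+STZ library. Of all genes tested, 5.43% separated in that direction. Sdhb, the iron-sulfur subunit gene (ENSMUSG00000009863, chromosome 4, 140961203 to 140979193, mm10 coordinates as deposited), had 908, 1424, 914 and 1377 CPM in METTL3 hearts, 855, 899, 857 and 755 CPM in HFD+STZ hearts and 532, 669 and 1505 CPM in chow hearts. METTL3 replicates 2 and 4 were high, replicates 1 and 3 lay just above the HFD+STZ range, and chow replicate 3 exceeded them all. The log2 fold change was 0.46 (SE 0.29, adjusted p 0.674) against HFD+STZ. Against chow it was 0.36 (SE 0.32, adjusted p 0.555) with all libraries and 0.93 (SE 0.22, adjusted p 0.031) without chow replicate 3. HFD+STZ against chow gave -0.10 (SE 0.32) and, without that library, 0.49 (SE 0.22).

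The other catalytic subunit gene of complex II did not separate the groups. Sdha, the flavoprotein gene, had 1083, 855, 1004 and 903 CPM in METTL3 hearts, 793, 1378, 1237 and 1162 CPM in HFD+STZ hearts and 998, 904 and 654 CPM in chow hearts, and all 3 groups overlapped. Its log2 fold changes were -0.25 (SE 0.21) for METTL3 over HFD+STZ, 0.17 (SE 0.22) for METTL3 over chow and 0.42 (SE 0.23) for HFD+STZ over chow. Without chow replicate 3 the values over chow were 0.01 for METTL3 and 0.27 for HFD+STZ. The membrane anchor gene Sdhc had 392.1, 404, 406 and 386 CPM in METTL3 hearts, 327, 473, 398 and 414 CPM in HFD+STZ hearts and 313, 320.0 and 277 CPM in chow hearts. Every METTL3 and HFD+STZ library lay above every chow library for Sdhc, at log2 fold changes of 0.39 (SE 0.17, adjusted p 0.205) for METTL3 and 0.41 (SE 0.17, adjusted p 0.373) for HFD+STZ. Neither passed, and without chow replicate 3 they were 0.32 and 0.35. Its partner anchor gene Sdhd averaged 282 ± 24.6 CPM in METTL3, 360.0 ± 64.6 CPM in HFD+STZ and 305 ± 9.29 CPM in chow hearts, with overlapping groups. The ratio of Sdhb to Sdha counts was 0.838, 1.66, 0.910 and 1.52 in METTL3, 1.08, 0.652, 0.692 and 0.650 in HFD+STZ and 0.533, 0.740 and 2.30 in chow libraries. METTL3 overlapped HFD+STZ, and overlapped chow through replicate 3 only; against chow replicates 1 and 2 every METTL3 library lay higher, with a difference in mean log2 ratio of 0.91.

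The 4 assembly genes of complex II differed in direction. Sdhaf2, whose protein attaches the flavin cofactor to the Sdha protein, had 77.5, 73.96, 61.99 and 78.4 CPM in METTL3 hearts, 58.6, 60.4, 60.4 and 56.7 CPM in HFD+STZ hearts and 49.4, 52.2 and 59.3 CPM in chow hearts. METTL3 libraries lay above all others, at 0.30 (SE 0.14, adjusted p 0.534) over HFD+STZ and 0.44 (SE 0.15, adjusted p 0.112) over chow, or 0.51 (SE 0.15, adjusted p 0.062) without chow replicate 3. Sdhaf1, which serves the insertion of iron-sulfur clusters into the Sdhb protein, lay low in METTL3 hearts at 4.31, 2.17, 3.02 and 3.40 CPM, against 7.20, 6.02, 3.62 and 5.11 CPM in HFD+STZ and 4.97, 5.48 and 11.9 CPM in chow hearts. METTL3 overlapped HFD+STZ but not chow, and the log2 fold changes were -0.77 (SE 0.35, adjusted p 0.542) and -1.21 (SE 0.37, adjusted p 0.088), the second of which was -0.70 without chow replicate 3. That value rests on 26 to 212 counts per library. Sdhaf3, which also serves those clusters, and Sdhaf4, which helps join the Sdha and Sdhb proteins, overlapped between all groups, with 0.29 (SE 0.25) and 0.07 (SE 0.33) for METTL3 over HFD+STZ.

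In complex III the large subunits were steady between METTL3 and HFD+STZ hearts. The core protein gene Uqcrc1 had 1200.1, 1776, 1279.6 and 1405 CPM in METTL3 hearts, 1213, 1521, 1378 and 1247 CPM in HFD+STZ hearts and 1001, 1084 and 1559.5 CPM in chow hearts. Uqcrc2, its partner, had 849.8, 723, 786 and 772 CPM in METTL3 hearts, 661, 835, 924 and 750.1 CPM in HFD+STZ hearts and 597, 569 and 241 CPM in chow hearts. For Uqcrc2 the METTL3 and HFD+STZ libraries lay above all chow libraries, most of all above chow replicate 3. Its log2 fold changes were -0.02 (SE 0.25) for METTL3 over HFD+STZ, 0.74 (SE 0.27, adjusted p 0.141) for METTL3 over chow and 0.76 (SE 0.27, adjusted p 0.326) for HFD+STZ over chow, and without chow replicate 3 the values over chow were 0.42 for METTL3 and 0.45 for HFD+STZ. Cyc1, the gene of cytochrome c1, had 722, 894, 679 and 767 CPM in METTL3 hearts, 733, 894, 845 and 781 CPM in HFD+STZ hearts and 632, 668 and 419 CPM in chow hearts. It separated from chow in the same way, at 0.42 (SE 0.20) for METTL3 and 0.51 (SE 0.20) for HFD+STZ, and 0.23 and 0.33 without chow replicate 3. Uqcrfs1, the Rieske iron-sulfur protein gene, averaged 965 ± 71.5 CPM in METTL3, 960.1 ± 147 CPM in HFD+STZ and 816 ± 162 CPM in chow hearts, with 0.01 (SE 0.18) between METTL3 and HFD+STZ.

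Uqcc3, a gene for an assembly factor of complex III that acts on cytochrome b (ENSMUSG00000071654, chromosome 19, 8880016 to 8880933), was the lowest of these genes in METTL3 relative to chow hearts with all 3 chow libraries; without chow replicate 3 Sdhaf1 was lower. It had 8.46, 13.04, 8.15 and 12.5 CPM in METTL3 hearts, 16.2, 17.03, 15.2 and 18.3 CPM in HFD+STZ hearts and 14.6, 18.4 and 86.2 CPM in chow hearts. All METTL3 libraries lay below all HFD+STZ and all chow libraries, and chow replicate 3 stood far above every other library. The log2 fold change of METTL3 over HFD+STZ was -0.66 (SE 0.45, adjusted p 0.695), and over chow -1.91 (SE 0.48, adjusted p 0.051), just above the threshold. Without chow replicate 3 they were -0.68 (SE 0.18, adjusted p 0.102) and -0.66 (SE 0.22, adjusted p 0.093), so the value over chow depends on that library. HFD+STZ over chow was -1.25 (SE 0.47), and 0.02 without it. The other assembly genes, Uqcc1 and Uqcc2, overlapped between all groups and gave -0.02 (SE 0.17) and -0.26 (SE 0.36) for METTL3 over HFD+STZ.

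The small subunits of complex III (Uqcrb, Uqcrh, Uqcrq, Uqcr10 and Uqcr11) followed the chow replicate 3 pattern. Uqcr11 had 103, 146, 91.6 and 142 CPM in METTL3 hearts, 147, 209, 182 and 142 CPM in HFD+STZ hearts and 109, 152 and 547 CPM in chow hearts, and METTL3 overlapped HFD+STZ. Its log2 fold change was -0.50 (SE 0.40) for METTL3 over HFD+STZ and -1.16 (SE 0.43) over chow, which became -0.13 without chow replicate 3. Uqcrh, the hinge protein gene, averaged 355 ± 56.4 CPM in METTL3, 382 ± 66.4 CPM in HFD+STZ and 602 ± 555 CPM in chow hearts, with -0.76 (SE 0.43) for METTL3 over chow and 0.32 without that library. For Uqcrb, Uqcrq and Uqcr10 the log2 fold changes of METTL3 over HFD+STZ were -0.32 (SE 0.37), 0.11 (SE 0.43) and 0.09 (SE 0.27). Cycs, the gene of the electron carrier cytochrome c, had 416, 359, 301 and 396 CPM in METTL3 hearts, 385, 506, 479.7 and 411 CPM in HFD+STZ hearts and 329, 352 and 647 CPM in chow hearts. Its values overlapped between all groups, and its log2 fold changes were -0.27 (SE 0.22) for METTL3 over HFD+STZ, -0.27 (SE 0.24) for METTL3 over chow and 0.01 (SE 0.24) for HFD+STZ over chow, with 0.10 and 0.39 over chow without its replicate 3.

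Of the 4 complexes, complex IV had the widest swing in its median with chow replicate 3. Of the 16 tested genes 15 were lower in METTL3 than in chow hearts (median -0.32), and 15 were lower in HFD+STZ than in chow hearts (median -0.44). Without that library 13 were higher in METTL3 (median 0.40) and 14 in HFD+STZ (median 0.37). Cox4i1, the common isoform of the regulatory subunit 4, had 1122, 1631, 1073 and 1449.9 CPM in METTL3 hearts, 1326, 1507, 1353 and 1193 CPM in HFD+STZ hearts and 874, 1207 and 3641 CPM in chow hearts. METTL3 and HFD+STZ libraries overlapped, and chow replicate 3 lay far above all of them. Its log2 fold changes were -0.03 (SE 0.36) for METTL3 over HFD+STZ, and over chow -0.53 for METTL3 and -0.50 for HFD+STZ, against 0.33 and 0.37 without chow replicate 3.

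The other general subunit genes of complex IV overlapped between METTL3 and HFD+STZ hearts. Cox5a, a gene for a subunit at the matrix face, averaged 394 ± 29.8 CPM in METTL3, 454 ± 72.1 CPM in HFD+STZ and 527 ± 277 CPM in chow hearts. Cox5b, for a neighbouring subunit that binds zinc, averaged 181 ± 35.1 CPM in METTL3, 238 ± 34.6 CPM in HFD+STZ and 283 ± 177 CPM in chow hearts. The log2 fold changes of METTL3 over HFD+STZ were -0.21 (SE 0.26) for Cox5a and -0.39 (SE 0.30) for Cox5b. Cox6c, a membrane subunit gene, had 548, 999.6, 571 and 806 CPM in METTL3 hearts, 596, 624, 656 and 437 CPM in HFD+STZ hearts and 349.7, 473 and 1572 CPM in chow hearts, with METTL3 replicates 2 and 4 high. METTL3 over HFD+STZ was 0.34 (SE 0.39) for Cox6c and 0.28 (SE 0.45) for Cox7c, a further small membrane subunit gene. Cox7b, on chromosome X, averaged 420.5 ± 100.1 CPM in METTL3, 386 ± 65.3 CPM in HFD+STZ and 437 ± 275 CPM in chow hearts. Cox6b1, whose protein joins the monomers of the complex IV dimer, averaged 309 ± 48.6 CPM in METTL3, 369 ± 52.7 CPM in HFD+STZ and 571 ± 493 CPM in chow hearts. In Sdhb, Cox6c and most of the short genes METTL3 replicates 2 and 4 exceeded replicates 1 and 3; the share of nuclear coding counts in transcripts under 1000 bases was 10.3% and 9.59% in those libraries, against 7.57% and 7.19%, and its part in the spread was not tested.

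Heart and general isoforms of complex IV were compared as ratios of counts within each library, which need no scaling between libraries. The clearest case was subunit 7a. Cox7a1, the muscle isoform (ENSMUSG00000074218, chromosome 7, 30184144 to 30186078), had 111, 177, 95.5 and 169 CPM in METTL3 hearts, 152, 238, 195 and 161 CPM in HFD+STZ hearts and 149.6, 214 and 953 CPM in chow hearts, and Cox7a2, the general isoform (ENSMUSG00000032330, chromosome 9, 79755361 to 79759878), had 213, 307, 211 and 279 CPM in METTL3 hearts, 225, 229, 246 and 163 CPM in HFD+STZ hearts and 152, 210.3 and 503 CPM in chow hearts. The ratio of Cox7a1 to Cox7a2 was 0.525, 0.576, 0.452 and 0.605 in METTL3, 0.674, 1.04, 0.795 and 0.986 in HFD+STZ and 0.987, 1.02 and 1.89 in chow libraries. Every METTL3 library lay below every HFD+STZ and chow library, with or without chow replicate 3. The mean log2 ratio differed by -0.68 between METTL3 and HFD+STZ and by -0.90 between METTL3 and chow replicates 1 and 2, against SDs of 0.19 in METTL3 and 0.29 in HFD+STZ libraries. Neither gene passed on its own: Cox7a1 gave -0.43 (SE 0.46, adjusted p 0.826) and Cox7a2 0.23 (SE 0.31, adjusted p 0.882) for METTL3 over HFD+STZ. The ratio, 1 of 7 computed, was not tested. It sets genes of unequal length side by side and carries no length or GC offset. For METTL3 over HFD+STZ, Spearman's rho between GC content and log2 fold change was -0.50 over all genes and -0.17 over the 54.

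The other isoform pairs did not separate METTL3 from HFD+STZ hearts. Cox6a2, the heart and muscle isoform of subunit 6a, outnumbered the general isoform Cox6a1 in every library, with ratios of 10.5 to 13.1 in METTL3, 11.02 to 19 in HFD+STZ and 7.40 to 12.02 in chow hearts. Cox8b, an isoform of muscle and brown fat, outnumbered the general isoform Cox8a with ratios of 3.22 to 7.23 in METTL3, 3.69 to 5.95 in HFD+STZ and 2.82 to 12.1 in chow hearts. Against chow replicates 1 and 2 alone, HFD+STZ libraries lay wholly higher for Cox8b over Cox8a, by 0.63 in mean log2 ratio, while METTL3 overlapped, and both groups overlapped them for Cox6a2 over Cox6a1. Cox6a2 averaged 822 ± 227 CPM in METTL3, 898 ± 169 CPM in HFD+STZ and 935 ± 489 CPM in chow hearts, and Cox8b averaged 223 ± 53.6 CPM in METTL3, 232 ± 45.1 CPM in HFD+STZ and 353 ± 335 CPM in chow hearts. Their log2 fold changes of METTL3 over HFD+STZ were -0.13 (SE 0.29) and -0.06 (SE 0.43), and those of the general isoforms 0.23 (SE 0.38) for Cox6a1 and -0.11 (SE 0.18) for Cox8a. Cox4i2, the isoform of subunit 4 known from lung and low oxygen, was rare beside Cox4i1, with ratios of 0.0105, 0.0132, 0.0125 and 0.0121 in METTL3, 0.0113, 0.00520, 0.00675 and 0.00735 in HFD+STZ and 0.00990, 0.0118 and 0.0105 in chow hearts. HFD+STZ replicates 2, 3 and 4 lay below all METTL3 and chow libraries, but replicate 1 overlapped both. The testis isoform Cox6b2 was near its limit of detection, at 1.96, 2.76, 0.906 and 2.96 CPM in METTL3 hearts, 2.35, 2.55, 2.51 and 0.913 CPM in HFD+STZ hearts and 0.518, 0.323 and 1.41 CPM in chow hearts. Its log2 fold change over chow was 1.51 (SE 0.62, adjusted p 0.18) for METTL3 and 1.47 (SE 0.62, adjusted p 0.377) for HFD+STZ, and 2.31 and 2.29 without chow replicate 3, resting on 6 to 42 counts per library. Cox7a2l, a factor of supercomplex assembly, averaged 239.8 ± 15.01 CPM in METTL3, 222 ± 18.5 CPM in HFD+STZ and 245 ± 125 CPM in chow hearts.

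The bases before the starts of 4 of these genes are shown from RefSeq (GRCm38.p6): the subunit 7a pair, whose ratio set METTL3 libraries apart, and Cox6a1 and Atp5h, which with Sdhd (not shown) are the 3 genes that carry both the NRF1 and the ETS letters. Each run is the 250 bases up to the RefSeq start, which can lie some bases from the start in the files, 5′ to 3′ on the gene's strand, in lower case with motif matches in capitals.
Cox7a1 (chr7:30183921-30184170, forward strand): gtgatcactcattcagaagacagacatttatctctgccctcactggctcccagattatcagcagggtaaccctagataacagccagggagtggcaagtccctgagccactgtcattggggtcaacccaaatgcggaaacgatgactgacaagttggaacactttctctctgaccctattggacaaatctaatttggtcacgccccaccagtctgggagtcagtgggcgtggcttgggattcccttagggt
Cox7a2 (chr9:79759854-79760103, reverse strand): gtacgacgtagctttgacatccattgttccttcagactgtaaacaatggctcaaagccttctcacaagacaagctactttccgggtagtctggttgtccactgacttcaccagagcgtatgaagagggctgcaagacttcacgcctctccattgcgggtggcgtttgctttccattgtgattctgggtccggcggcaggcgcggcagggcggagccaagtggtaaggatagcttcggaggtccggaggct
Cox6a1 (chr5:115348959-115349208, reverse strand): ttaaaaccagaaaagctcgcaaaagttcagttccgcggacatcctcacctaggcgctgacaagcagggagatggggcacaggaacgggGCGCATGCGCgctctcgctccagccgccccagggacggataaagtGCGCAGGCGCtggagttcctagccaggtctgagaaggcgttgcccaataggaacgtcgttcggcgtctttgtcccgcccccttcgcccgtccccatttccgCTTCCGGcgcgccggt
Atp5h (chr11:115419920-115420169, reverse strand): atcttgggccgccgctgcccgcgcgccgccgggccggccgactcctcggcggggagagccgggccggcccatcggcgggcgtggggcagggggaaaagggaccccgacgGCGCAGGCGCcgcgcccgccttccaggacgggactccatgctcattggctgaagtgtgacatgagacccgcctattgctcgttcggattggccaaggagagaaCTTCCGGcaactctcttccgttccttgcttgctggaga
The motifs, sought on both strands, were GCGCA, any base, then GCGC for NRF1, CCGGAAG for the ETS family that includes GABPA, TCAAGGTCA for the estrogen-related receptors, AAGATGGCG for YY1 and TATAAA for the TATA box. Promoters were in the table for 44 of the 56 symbols. These genes have 47 promoters in the table, and the NRF1 letters were in 8 of them (17.0%), against 3.74% of 32851 promoters in all. The ETS letters were in 11 (23.4%), against 6.91% of all. The ERR and YY1 letters were each in 1 gene (Atp5g3 and Atp5j), or 2.13% of promoters against 0.387% and 0.606% of all, and TATAAA was in Atp5l and Cox7b2, or 4.26% against 12.4%. In Cox6a1 the NRF1 letters begin 162 and 117 bases before the start and the ETS letters 16 bases before it, and in Atp5h they begin 141 and 38 bases before it. Neither Cox7a1 nor Cox7a2 holds any of the 5 in this window. A match describes letters only. The 8 genes with NRF1 letters had a median log2 fold change of -0.17 for METTL3 over HFD+STZ, against 0.02 for the other 35 tested genes with a promoter. The 11 genes with ETS letters lay the other way at 0.14, against -0.04 for the other 32. Over all 3 chow libraries they were lower than the other 32, at -0.60 against -0.28 for METTL3 and -0.66 against -0.18 for HFD+STZ. Genes with NRF1 letters gave -0.34 against -0.29 for METTL3 and -0.12 against -0.25 for HFD+STZ. These medians over chow were not computed without chow replicate 3.

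In complex V the catalytic genes were nearly level between METTL3 and HFD+STZ hearts. Atp5a1, the alpha subunit gene, had 4443, 4743, 4449 and 4216 CPM in METTL3 hearts, 3572, 4927, 4915 and 4157 CPM in HFD+STZ hearts and 3469.5, 3516 and 2931 CPM in chow hearts. Both groups lay above all chow libraries, at 0.43 (SE 0.19, adjusted p 0.208) for METTL3 and 0.41 (SE 0.19, adjusted p 0.413) for HFD+STZ, or 0.34 and 0.34 without chow replicate 3. Atp5b, the beta subunit gene, had 3935, 3884, 3885 and 3346 CPM in METTL3 hearts, 3448, 4807, 4617 and 4044 CPM in HFD+STZ hearts and 3326, 3511 and 3362 CPM in chow hearts, and all groups overlapped. Its log2 fold changes were -0.17 (SE 0.17) for METTL3 over HFD+STZ, 0.15 (SE 0.19) for METTL3 over chow and 0.31 (SE 0.19) for HFD+STZ over chow, the last becoming 0.31 without chow replicate 3. Atp5c1, the gamma subunit gene of the rotating stalk, had 1134, 1484, 1091 and 1510.4 CPM in METTL3 hearts, 1095, 1211, 1233 and 961 CPM in HFD+STZ hearts and 736, 925 and 1044 CPM in chow hearts. METTL3 libraries lay above all chow libraries for Atp5c1, at 0.53 (SE 0.20, adjusted p 0.151) and 0.64 without chow replicate 3, and overlapped HFD+STZ.

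Atp5o (ENSMUSG00000022956, chromosome 16, 91925214 to 91931687), the gene of the subunit that joins the stator stalk to the catalytic head, stood outside that pattern. It had 238, 229.9, 161 and 249.7 CPM in METTL3 hearts, 319, 420.2, 305 and 354 CPM in HFD+STZ hearts and 267, 329 and 898 CPM in chow hearts. Every METTL3 library lay below every HFD+STZ and chow library. The log2 fold change of METTL3 over HFD+STZ was -0.67 (SE 0.32, adjusted p 0.565), with a 95% interval of -1.37 to 0.03. Without chow replicate 3 in the fit, which pools the spread of all groups, it was -0.69 (SE 0.17, adjusted p 0.083), and with HFD+STZ replicate 1 left out as well the gene passed. Over chow it was -1.18 (SE 0.35, adjusted p 0.078), and -0.45 (SE 0.20, adjusted p 0.199) without chow replicate 3. HFD+STZ over chow was -0.51 (SE 0.35) and, without that library, 0.24 (SE 0.20).

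Atp5s and Atp5mpl lay the other way. Atp5s, whose protein is known as coupling factor B, had 34.00, 36.1, 25.7 and 36.3 CPM in METTL3 hearts, 21.7, 25.6, 25.4 and 21.98 CPM in HFD+STZ hearts and 21.7, 19.9 and 29.2 CPM in chow hearts. METTL3 libraries lay above all HFD+STZ libraries, replicate 3 only narrowly, at 0.48 (SE 0.17, adjusted p 0.447), and overlapped chow only through replicate 3. Atp5mpl, a gene for a small proteolipid of the complex, had 157, 309, 170.3 and 242 CPM in METTL3 hearts, 132, 145, 172 and 94.4 CPM in HFD+STZ hearts and 80.7, 113 and 555 CPM in chow hearts. METTL3 overlapped HFD+STZ at 0.69 (SE 0.49), and exceeded chow replicates 1 and 2 but not replicate 3. Over chow without replicate 3 edgeR's Benjamini-Hochberg adjusted p was 0.039 for Atp5mpl (log2 fold change 1.17, SE 0.30) and 0.047 for Atp5s (0.66, SE 0.18). With length and GC offsets as well, Atp5mpl was 1.24 (adjusted p 0.018) and Atp5s lost its call at 0.30 (adjusted p 0.358), and its value over HFD+STZ was 0.17. With all 3 chow libraries the values were -0.18 (SE 0.52) and 0.48 (SE 0.19).

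The 3 genes for the membrane ring subunit c encode the same mature protein. Atp5g1, Atp5g2 and Atp5g3 averaged 726 ± 197, 155 ± 17.02 and 1254 ± 273 CPM in METTL3 hearts, 703 ± 87.2, 165 ± 23.2 and 1233 ± 181 CPM in HFD+STZ hearts, and 924 ± 623, 145 ± 24.5 and 1183 ± 689.6 CPM in chow hearts. The ratio of Atp5g1 to Atp5g3 counts was 0.540, 0.646, 0.569 and 0.544 in METTL3, 0.560, 0.565, 0.554 and 0.607 in HFD+STZ and 0.688, 0.749 and 0.8291 in chow libraries. All METTL3 and HFD+STZ libraries lay below all chow libraries, with or without chow replicate 3, and the METTL3 and HFD+STZ groups overlapped. The mean log2 ratio differed from that of chow replicates 1 and 2 by -0.32 in METTL3 and -0.33 in HFD+STZ hearts. The ratio of Atp5g2 to Atp5g3, which shares its denominator, also lay wholly below those 2 libraries, by -0.43 in METTL3 and -0.34 in HFD+STZ hearts. For Atp5g2 to Atp5g3, however, chow replicate 3 was the lowest library at 0.0849. The Atp5g1 to Atp5g3 ratio too is 1 of 7 computed and was not tested. The annotated principal transcripts of the 2 genes have 4715 and 723 bases, which need not be the lengths expressed. The chow libraries also carry a code range that no other library reaches. Of the remaining stalk and membrane genes, Atp5k, the subunit e gene, had 49.98, 49.7, 31.03 and 71.1 CPM in METTL3 hearts, 66.7, 95.9, 106 and 56.98 CPM in HFD+STZ hearts and 44.5, 59.5 and 293 CPM in chow hearts, with -0.69 (SE 0.49) for METTL3 over HFD+STZ. Over chow Atp5k gave -1.39 (SE 0.53) for METTL3 and -0.05 without chow replicate 3. The others (Atp5d, Atp5e, Atp5f1, Atp5h, Atp5j, Atp5j2 and Atp5l) had log2 fold changes of -0.32 to 0.24 for METTL3 over HFD+STZ, with overlapping groups.

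**Figure D5:**
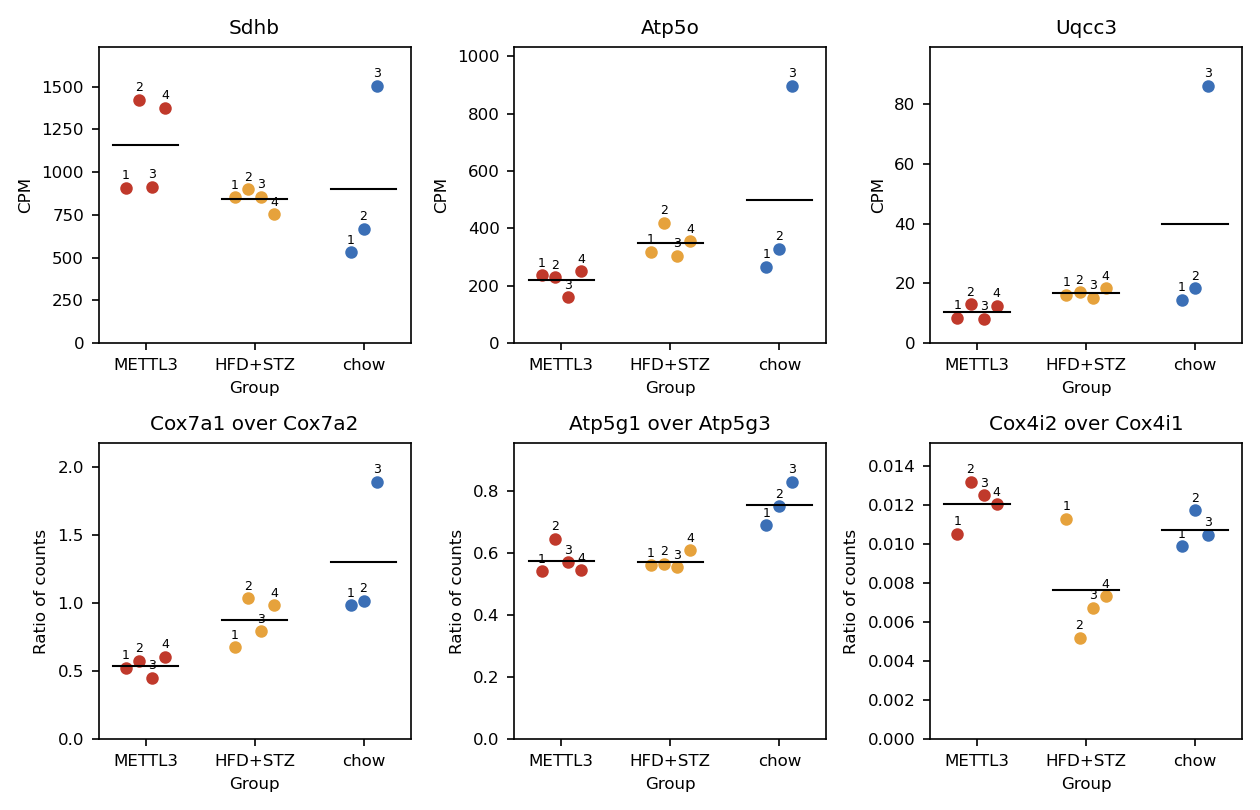
The upper panels give CPM of Sdhb, Atp5o and Uqcc3 and the lower panels count ratios of isoform pairs, each point a library numbered by its replicate and each line the group mean, with METTL3, HFD+STZ and chow from left to right. For Atp5o, Uqcc3 and the Cox7a1 to Cox7a2 ratio all METTL3 points lie below all others, and for Atp5g1 to Atp5g3 both METTL3 and HFD+STZ points lie below the chow points.

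The mitochondrially encoded partners of complexes III and IV, and mt-Atp6 of complex V, were high relative to the nuclear genes in METTL3 hearts. Of the 3 ratios below, none of which was tested, only that of complex III separated METTL3 from HFD+STZ hearts. The separation was not particular to complex III. The 6 mitochondrially encoded genes summed to 214864 to 297697 CPM in METTL3 and 163257 to 211056 CPM in HFD+STZ hearts, and the share of the whole mitochondrial genome given above separated too. The ratio of mt-Cytb counts to those of the 9 nuclear subunit genes of complex III was 11.5, 12.02, 10.67 and 15.03 in METTL3, 7.80, 6.56, 8.14 and 7.42 in HFD+STZ and 8.01, 8.22 and 1.55 in chow libraries, so every METTL3 library lay above all others. For complex IV, with mt-Co1, mt-Co2 and mt-Co3 over 16 nuclear genes, it was 45.4, 25.5, 35.3 and 34.2 in METTL3, 23.8, 21.2, 27.2 and 26.1 in HFD+STZ and 23.8, 21.1 and 1.43 in chow libraries, and METTL3 replicate 2 lay within the HFD+STZ range. For mt-Atp6 and mt-Atp8 over 17 genes of complex V it was 0.287, 0.220, 0.365 and 0.215 in METTL3, 0.0756, 0.146, 0.188 and 0.221 in HFD+STZ and 0.113, 0.178 and 0.00520 in chow libraries, and METTL3 overlapped HFD+STZ. Chow replicate 3 was the lowest library in all 3 ratios. On its own mt-Cytb gave 0.72 (SE 0.32, adjusted p 0.534) for METTL3 over HFD+STZ and 1.35 (SE 0.35, adjusted p 0.057) over chow. Over chow without replicate 3, mt-Cytb, mt-Co1 and mt-Co3 passed, at 0.99 (SE 0.24, adjusted p 0.031), 1.00 (SE 0.22, adjusted p 0.021) and 1.09 (SE 0.23, adjusted p 0.019). With length and GC offsets as well, none of them passed: mt-Cytb was 0.51, mt-Co1 0.62 and mt-Co3 0.59, at adjusted p of 0.158, 0.105 and 0.198. The offsets also brought mt-Cytb to 0.35 for METTL3 over HFD+STZ. Before the offsets, Spearman's rho between GC content and that comparison's log2 fold change was -0.50 across 14851 genes, which are not independent replicates. mt-Atp8 lay the other way, at -0.32 for METTL3 over HFD+STZ and -0.34 over chow without replicate 3. It had 5.88, 7.35, 11.2 and 7.17 CPM in METTL3, 3.96, 10.1, 13.1 and 12.2 CPM in HFD+STZ and 11.9, 7.96 and 0.619 CPM in chow hearts, and mt-Atp6 supplied nearly all of the complex V ratio. Counting of mitochondrial reads on both strands and in nuclear copies is not described, so the levels themselves are uncertain.

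Assembly factors that do not carry the names searched were also read from the same fit. Of 32 listed for complexes III to V, 29 were tested, and 0 passed in edgeR in METTL3 versus HFD+STZ or HFD+STZ versus chow. In METTL3 versus chow 1 rose, Tmem70, a membrane protein gene for ATP synthase assembly, with 125, 121, 101 and 114 CPM in METTL3 hearts, 67.1, 86.6, 83.8 and 74.9 CPM in HFD+STZ hearts and 61.7, 63.5 and 83.6 CPM in chow hearts. METTL3 libraries lay above all others for Tmem70, at 0.73 (SE 0.17, adjusted p 0.043) over chow, 0.87 (SE 0.16, adjusted p 0.012) without chow replicate 3, and 0.56 (SE 0.16, adjusted p 0.351) over HFD+STZ. The call over chow held in 6 of 22 alternative settings, and with length and GC offsets the adjusted p was 0.059 (0.024 without chow replicate 3). Higd2a, a complex IV assembly factor gene, lay the other way at 31.01 to 40.1 CPM in METTL3 and 48.2 to 58.8 CPM in HFD+STZ hearts, a log2 fold change of -0.57 (SE 0.15, adjusted p 0.35). DESeq2 and limma voom did call Higd2a in that comparison, beside 139 and 395 of all 14862 genes. So did the fit with chow replicate 3 and HFD+STZ replicate 1 left out together, beside 403 of 15017. limma voom also called Tmem70 there, and Atpaf1, Tmem70 and Ttc19, all higher, in HFD+STZ versus chow, beside 1954 of 14862. The medians over the list were -0.01 for METTL3 over HFD+STZ, -0.17 for METTL3 over chow and -0.12 for HFD+STZ over chow, and without chow replicate 3 those over chow were 0.11 for METTL3 and 0.12 for HFD+STZ.

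Of 10 regulators known to act on respiratory genes, 1 rose in METTL3 versus chow hearts. Ppargc1a, the coactivator that drives mitochondrial gene programmes, had 178, 121, 144 and 175 CPM in METTL3 hearts, 55.4, 118, 128 and 117 CPM in HFD+STZ hearts and 77.5, 49.4 and 43.5 CPM in chow hearts. METTL3 over chow was 1.45 (SE 0.30, adjusted p 0.030), and 1.28 (SE 0.30, adjusted p 0.030) without chow replicate 3. The call held in 13 of 22 alternative settings and was lost with length and GC offsets (log2 fold change 1.12, adjusted p 0.054), also without chow replicate 3 (1.09, adjusted p 0.065). HFD+STZ over chow was 0.88 (SE 0.29, adjusted p 0.29) and METTL3 over HFD+STZ 0.57 (SE 0.27, adjusted p 0.555), neither of which passed. Nrf1 and Gabpa, the genes of the factors whose motifs were searched above, had 11.2 to 13.6 and 54.4 to 62.2 CPM in METTL3, 11.4 to 16.03 and 45.6 to 56.6 in HFD+STZ, and 9.23 to 12.3 and 33.8 to 52.9 in chow hearts, with no call. Tfam, whose protein packages mitochondrial DNA and helps start its transcription, gave 0.23 (SE 0.16) for METTL3 over HFD+STZ.

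Other cell types were read beside these results. Macrophage markers summed to 50.9 to 98.5 CPM in METTL3, 98.6 to 185 in HFD+STZ and 164 to 307 in chow hearts. Of the 5, C1qa and Csf1r fell in METTL3 versus chow hearts, at -2.57 (SE 0.39, adjusted p 0.010) and -1.33 (SE 0.27, adjusted p 0.028), or -1.86 and -1.42 without chow replicate 3. These calls held in 19 of 22 alternative settings for C1qa and 14 of 22 for Csf1r. No marker of cardiomyocytes, fibroblasts, endothelium, smooth muscle or red cells passed in any of the 3 comparisons in edgeR with all libraries or without chow replicate 3 alone. Other settings did call some, among them Actc1 (0.74 with length and GC offsets without chow replicate 3) and Pecam1 (0.54 in DESeq2) in METTL3 versus chow hearts, Myh6 (-0.74 in limma voom) in METTL3 versus HFD+STZ hearts, and Col3a1 (-1.64 without HFD+STZ replicate 1) and Acta2 (-1.50 with no filter) in HFD+STZ versus chow hearts. Red cell genes varied by library, with a sum of 445, 1762, 264 and 925 CPM in METTL3, 475, 537, 989.9 and 746 in HFD+STZ and 385, 304 and 2032 in chow libraries. White fat markers stayed at or under 5.08 CPM in sum. The part of these cells in the values above was not tested.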

How the data were processed

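RNA sequencing libraries of 11 whole hearts were read from 1 deposited table of whole-number counts per gene. The authors' values are not normalized, and mm10, Salmon and FastQC appear in the submitters' processing notes, without roles, versions or strand setting. Genes were kept by edgeR's filterByExpr (minimum count 10, minimum total 15), which left 14862, and libraries were scaled by TMM. A single edgeR 4.0.16 quasi-likelihood model (R 4.3.3) with group means of all 11 libraries gave the 3 comparisons, with Benjamini-Hochberg adjustment over all genes and a threshold of 0.05. CPM use TMM-scaled library sizes. Transcript lengths and promoters came from the reference tables, and the coordinates of 53 of the 57 entries were identical to GENCODE M21.

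The members and lists were chosen with earlier results of these data known. The named-gene rule took core subunits, isoform pairs, assembly genes, any gene past the threshold and the 2 smallest p-values per complex and comparison. Members named outside it, such as Atp5mpl, Atp5k, Atp5e, Cox7c and the small subunits of complex III, and the listed genes Higd2a and mt-Cytb were chosen after their values were seen. Groups of fewer than 3 libraries arise only where a chow library is left out, which includes the fit without chow replicate 1.

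Alternatives were DESeq2 1.42.0, limma 3.58.1 voom with quality weights, other scalings and filters, the code range, length and GC offsets, a replicate block and each library left out. The fit was tested on simulated data: of 200 genes changed among 14862, changes of 1 on the log2 scale were recovered in 19% (METTL3 versus chow), 25% (METTL3 versus HFD+STZ) and 19% (HFD+STZ versus chow), and changes of 2 in 64%, 72% and 63%. Total counts of 13900531 to 16952639 per library set the counting precision. Library pairs were checked for duplicates, and none agreed within sampling noise.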

Additional observations from a re-analysis of the deposited data

Results flagged for a closer look

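Of 84 groups of 4 libraries examined, 3 held a library far from the others of its group by Dixon's criterion, which chance gives in about 1 of 20 groups. Atp5b, the beta subunit gene of ATP synthase, was low in METTL3 replicate 4 at 3346 CPM, while the other METTL3 libraries lay between 3884 and 3935 CPM. Cox7a2l, the supercomplex factor gene, was low in HFD+STZ replicate 1 at 195 CPM, while the others of that group lay between 229.9 and 234 CPM. The testis isoform Cox6b2 was low in HFD+STZ replicate 4 at 0.913 CPM, while the others lay between 2.35 and 2.55 CPM.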

How the results depend on the processing

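The number of these genes called in METTL3 versus HFD+STZ was 0 in edgeR and 1 (Atp5o) under limma voom and with chow replicate 3 and HFD+STZ replicate 1 left out together; leaving out each library in turn gave 0, with medians of -0.09 to 0.07. In METTL3 versus chow it was 0, against 5 under DESeq2, 14 under limma voom, 5 with no filter, 6 with both libraries left out and 3 with length and GC offsets without chow replicate 3 (Sdhb, Atp5mpl and Uqcrc1, where leaving out that library alone gave Sdhb, Atp5mpl and Atp5s). Leaving out each library gave 0 to 5, with 5 without chow replicate 1, and medians of -0.49 to 0.33; the median was 0.33 with both left out and 0.38 with the offsets without chow replicate 3. In HFD+STZ versus chow it was 0, against 6 under limma voom, and the median was 0.29 under limma voom, 0.41 with both left out, 0.32 with the offsets without chow replicate 3, and -0.54 to 0.37 when each library was left out. The offsets without chow replicate 3 were added after the data were seen. Leaving out chow replicate 3 turned the sign of 16 of the 42 named genes in METTL3 versus chow and of 22 in HFD+STZ versus chow. In METTL3 versus chow 3 genes passed under limma voom with the opposite sign: Cox7a2l at 0.37, Cox7c at 0.69 and Atp5mpl at 0.86. Apart from the libraries left out by name, the cause of these changes was not tested. Over all genes DESeq2 called 1509, 139 and 307 and limma voom 3078, 395 and 1954 in METTL3 versus chow, METTL3 versus HFD+STZ and HFD+STZ versus chow, where edgeR called 475, 0 and 25. In METTL3 versus chow all-gene calls were 747 of 27239 with no filter and 691 of 15263 without chow replicate 1. They were 1258 of 15017 with both libraries left out and 460 of 15219 with the offsets without chow replicate 3. In METTL3 versus HFD+STZ the fit with both libraries left out called 403 of 15017.

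Samples that share a replicate number did not vary together (correlations of their deviations from -0.23 to 0.16). Samples of unlike number were not compared in this way, so the values cannot tell whether the numbers mark pairs. With a replicate block edgeR called 0 of these genes in each comparison, with medians of -0.16 for METTL3 versus chow, 0.01 for METTL3 versus HFD+STZ and -0.15 for HFD+STZ versus chow. Depth limits Sdhaf1, Sdhaf3 and Cox6b2 most.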
